A study of Mus musculus with 17 samples.

Results

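The oligoadenylate synthetase genes Oas1a, Oas1g, Oas2, Oas3, Oasl1 and Oasl2 were followed through 17 RNA-seq libraries of mouse skin. They were chosen by name, as the rows of the deposited expression table that carry those symbols, and all 6 were found among the 34140 genes of the table. The choice was made with earlier results of these data known. The counts of calls below therefore describe these genes and are not independent support. Other Oas genes of the table, Oas1c and Oas1f among them, are described further below. Every animal group was labelled C57/BL6j, a standard laboratory strain. Skin given ionizing radiation (IR) was sampled at day 3 (3 libraries), day 6 (2) and day 9 (3) after injury. Control skin was sampled at day 0 (2 libraries), day 3 (2), day 6 (2) and day 9 (3). The labels do not state the radiation dose, the kind of injury, the state of the day 0 skin or the age and sex of the mice, nor that each library came from its own animal. The p-values below therefore measure the spread between libraries, which may be technical. The stated purpose was to look for molecules involved in wound healing after irradiation.

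Oligoadenylate synthetases are antiviral enzymes whose genes are switched on by interferons. On binding double-stranded RNA they join ATP into short 2',5'-linked oligoadenylates, which act as a messenger of the antiviral response. Oas1a, Oas1g, Oas2 and Oas3 encode synthetases of this kind. Oasl2 carries ubiquitin-like domains and retains synthetase activity in the mouse, whereas Oasl1 lacks the activity and in the mouse represses translation of the mRNA of Irf7, a transcription factor of the interferon response.

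All 6 genes lie on chromosome 5 (mm10, positions as in the deposited table). Oas2 (ENSMUSG00000032690) spans chr5:120730333-120749853, Oas3 (ENSMUSG00000032661) chr5:120753098-120777661, Oas1g (ENSMUSG00000066861) chr5:120876142-120887613 and Oas1a (ENSMUSG00000052776) chr5:120896256-120907521, all on the minus strand. Oasl2 (ENSMUSG00000029561) at chr5:114896936-114912234 and Oasl1 (ENSMUSG00000041827) at chr5:114923240-114937915 are neighbours on the plus strand. Oas1a and Oas1g are close paralogues. Of all 50-base stretches of the annotated Oas1a transcripts, 57.6% also occur in Oas1g transcripts, and 45.2% of those of Oas1g occur in Oas1a. How the authors' counting treated reads that fit both is not stated in the labels, so the split between these genes is uncertain. Oas2, Oas3, Oasl1 and Oasl2 shared no such stretch with another Oas gene.

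The start regions of 5 of the 6 genes were available from RefSeq (GRCm38.p6), each as 250 bases before to 50 bases after the annotated start. They were searched on both strands for 2 copies of GAAA with any 2 bases between them, the core of the interferon-stimulated response element, and for TTCNNNGAA, the gamma-activated site. The windows of Oas1a, Oas1g and Oas3, which hold matches, are shown with that of Oasl1, which holds none, and that of Oas1c, another synthetase gene of the cluster. Capitals mark bases that belong to a match, and each sequence reads 5' to 3' on the strand of its gene, except that the match in the Oas1c window lies on the opposite strand. The windows are chr5:120907476-120907775 (minus strand) for Oas1a, chr5:120887564-120887863 (minus) for Oas1g, chr5:120777610-120777909 (minus) for Oas3, chr5:114922990-114923289 (plus) for Oasl1 and chr5:120812465-120812764 (minus) for Oas1c.
Oas1a: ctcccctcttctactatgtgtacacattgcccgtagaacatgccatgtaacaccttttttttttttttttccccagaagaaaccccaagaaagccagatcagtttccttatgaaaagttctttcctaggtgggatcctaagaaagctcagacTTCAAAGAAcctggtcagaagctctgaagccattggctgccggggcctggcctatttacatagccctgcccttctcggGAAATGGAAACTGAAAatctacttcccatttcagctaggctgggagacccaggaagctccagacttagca
Oas1g: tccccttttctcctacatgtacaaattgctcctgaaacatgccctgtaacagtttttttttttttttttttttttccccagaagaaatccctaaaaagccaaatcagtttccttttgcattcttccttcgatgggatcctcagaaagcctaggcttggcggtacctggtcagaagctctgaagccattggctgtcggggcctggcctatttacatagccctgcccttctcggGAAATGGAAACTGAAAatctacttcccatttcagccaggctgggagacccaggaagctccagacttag
Oas3: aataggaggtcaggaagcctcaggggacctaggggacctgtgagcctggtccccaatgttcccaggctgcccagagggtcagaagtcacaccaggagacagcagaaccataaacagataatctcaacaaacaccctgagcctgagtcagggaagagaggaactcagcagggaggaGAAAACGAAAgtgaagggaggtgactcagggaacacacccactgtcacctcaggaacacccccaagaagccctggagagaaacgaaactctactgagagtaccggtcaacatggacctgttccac
Oasl1: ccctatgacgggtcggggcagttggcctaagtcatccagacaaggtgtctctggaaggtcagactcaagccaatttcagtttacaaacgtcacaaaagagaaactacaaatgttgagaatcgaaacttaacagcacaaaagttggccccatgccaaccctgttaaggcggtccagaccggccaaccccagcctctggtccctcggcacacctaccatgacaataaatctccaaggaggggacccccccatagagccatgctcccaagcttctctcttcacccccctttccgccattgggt
Oas1c: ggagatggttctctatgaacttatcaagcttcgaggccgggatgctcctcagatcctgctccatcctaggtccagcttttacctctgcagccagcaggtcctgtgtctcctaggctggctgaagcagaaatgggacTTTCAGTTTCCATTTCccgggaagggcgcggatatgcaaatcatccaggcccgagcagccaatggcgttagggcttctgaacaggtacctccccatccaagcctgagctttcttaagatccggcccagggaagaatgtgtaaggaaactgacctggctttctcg

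Oas1a held 2 overlapping response element matches, at bases -20 to -11 and -14 to -5 from its start, and 1 gamma-activated site at -98 to -90. Oas1g held the same overlapping pair at -18 to -9 and -12 to -3, and Oas3 held 1 response element match at -75 to -66. No match to either motif lay in the windows of Oasl1 and Oasl2. Among 32851 mouse windows of this length, 3.44% held at least 1 response element match, 0.225% held 2 or more, and 8.3% held a gamma-activated site. The windows of Oas1a and Oas1g were 85.3% identical over their alignment, against 40.4% to 47.0% for the other 9 pairs of the 5 windows. The overlapping pair forms the run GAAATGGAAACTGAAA, which was looked for in all windows after it had been seen here. It occurred in 7 of the 32851 windows (0.0213%), and these belong to Oas1a, Oas1g, Oas1c, Apol9a and Apol9b. In the Oas1c window the run lies on the plus strand, 22 to 7 bases before the start of Oas1b, the divergent neighbour.

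**Figure D1:**
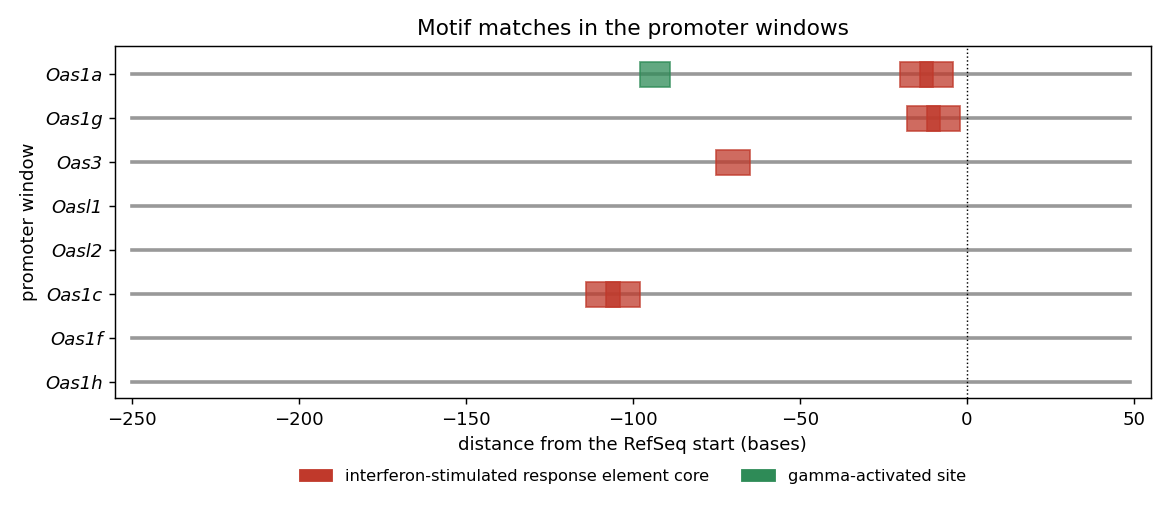
Motif matches in RefSeq start windows of 5 of the 6 synthetase genes and of Oas1c, Oas1f and Oas1h, by distance in bases from the start (dotted line). Red boxes are response element cores and the green box is a gamma-activated site; the overlapping pairs of Oas1a and Oas1g sit just before the start, and Oasl1, Oasl2, Oas1f and Oas1h hold no match.

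Levels are given as FPKM, in which fragment numbers are divided by gene length and library size, so that they can be compared between genes. The values correspond to 25440773 to 30797409 fragments per library. Mitochondrial genes took 31.8% and 21.7% of the summed FPKM in the day 0 libraries and 8.33% to 12.6% in the other 15. Epithelial markers (Krt5, Krt14, Krt10, Dsp and Trp63) were present in every library, as the skin label requires, with a summed level of 1718 to 14981 FPKM. Skeletal muscle markers summed to 15417 and 18305 FPKM at day 0 and to 1100 to 3868 FPKM elsewhere. In such whole-tissue RNA, fewer cells of a type and less RNA per cell cannot be told apart. Fold changes below are log2 differences of FPKM + 1 from limma, which understate the change of low genes, and p-values were adjusted over the 15271 genes with at least 1 FPKM in at least 2 libraries. An adjusted p under 0.05 passed.

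At day 3 the synthetase genes were 4.0 to 14.9 times higher in irradiated than in control skin by mean FPKM, and no irradiated library overlapped a control library for any of the 6. The increase passed the test for Oas1a, Oas1g, Oas3, Oasl1 and Oasl2, that is 5 of 6, while 1.56% of all tested genes passed in that direction. For the other, Oas2, it did not pass. The median log2 change was 2.56 over the 6 genes and -0.04 over all tested genes. Among tested genes, 15.9% had every irradiated library above every control library at this day.

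Oasl1 had 64.2, 54.2 and 39.3 FPKM in irradiated day 3 skin, against 4.63 and 2.43 FPKM in control day 3 skin. Its lowest irradiated library lay above its highest control library by a wide gap, and its log2 change of 3.58 (SE 0.46, limma adjusted p = 0.00223) was the largest of the 6. Oas3 had 18.9, 22.4 and 14.6 FPKM in irradiated skin, against 2.39 and 0.978 FPKM in control skin, and rose by 2.90 (SE 0.46, limma adjusted p = 0.00527). Oas1g had 17.2, 22.5 and 12.8 FPKM in irradiated skin, against 2.37 and 1.60 FPKM in control skin, and rose by 2.61 (SE 0.43, limma adjusted p = 0.00631). For these 3 genes the third irradiated library was the lowest of its group and still stood above both controls. Oasl2 had 51.1, 55.9 and 36.9 FPKM in irradiated skin, against 9.98 and 5.48 FPKM in control skin, and rose by 2.52 (SE 0.48, limma adjusted p = 0.0157). Oas1a had 62.4, 67.8 and 40.5 FPKM in irradiated skin, against 11.4 and 7.69 FPKM in control skin, and rose by 2.44 (SE 0.47, limma adjusted p = 0.0162). Oas1a and Oasl2, the most abundant of the 6 in control skin, thus had smaller log2 changes than the less abundant Oas3. However, Oas2, also less abundant than Oas1a and Oasl2, had the smallest change of the 6. Differences between genes were not tested. Oas2 had 23.9, 29.3 and 19.8 FPKM in irradiated skin, against 7.25 and 4.91 FPKM in control skin. Its groups did not overlap either, and its log2 change was 1.84 (SE 0.46, limma adjusted p = 0.0766). It passed with a pseudocount of 5, with only the groups compared and with array quality weights (limma adjusted p = 0.0359, 0.0336 and 0.00289), fits in which 321, 389 and 1242 of all tested genes passed.

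The day 3 calls rest on few control libraries. Without the control library labelled replicate 3, none of the 6 passed (limma adjusted p 0.0639 for Oasl1 and 0.137 to 0.617 for the others, with log2 changes of 1.60 to 3.22). Over all 15271 tested genes, 28 passed in that fit, against 282 with all libraries. Without control replicate 1, or without irradiated replicate 1 or 2, 3 passed, and Oas1a and Oasl2 were lost each time, while 129, 142 and 155 of all tested genes passed.

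**Figure D2:**
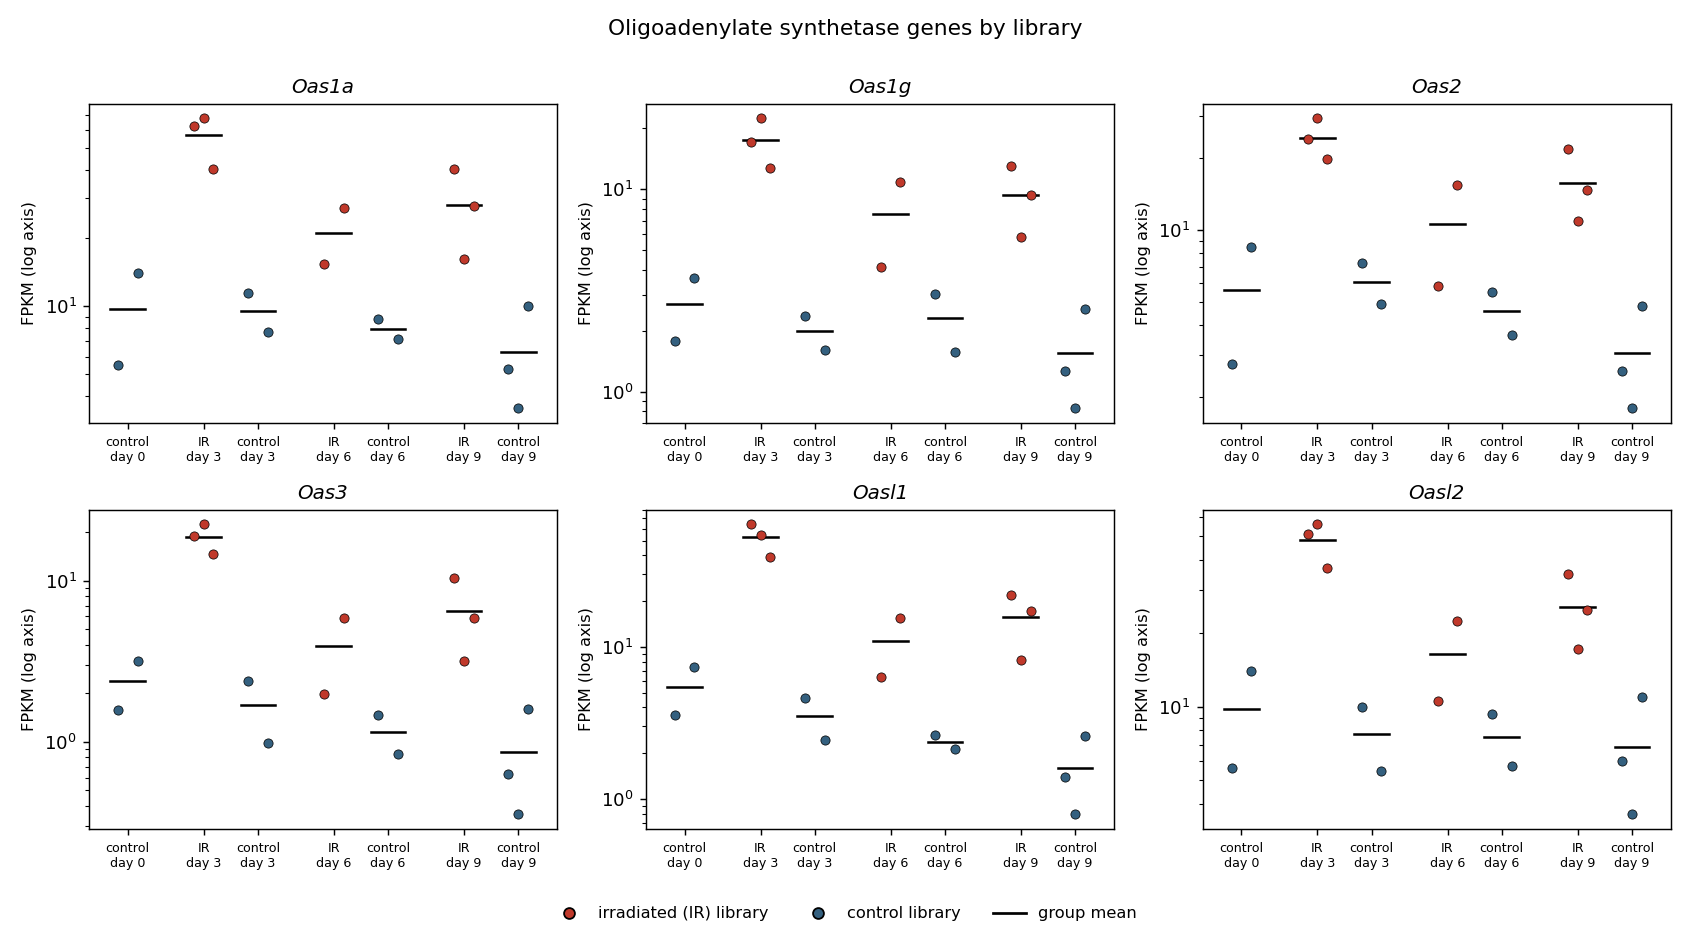
FPKM (log axis) of each synthetase gene in all 17 libraries, irradiated (red) and control (blue), with the group mean as a bar. In each panel every irradiated library lies above every control library of its own day, and the 3 irradiated day 3 libraries have the highest group mean.

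At day 6 none of the 6 genes passed, while 0.151% of tested genes passed as higher. Group means were nevertheless 2.18 to 4.61 times higher in irradiated skin, and every irradiated library lay above every control library for each of the 6, a separation seen in that direction for 19.8% of tested genes. Of the 6, 4 had an unadjusted limma p under 0.05. Oasl1 had 6.38 and 15.5 FPKM in irradiated day 6 skin, against 2.62 and 2.13 FPKM in control day 6 skin, a log2 change of 1.71 (SE 0.50, limma adjusted p = 0.166). Oas1g had 4.15 and 10.9 FPKM in irradiated skin, against 3.04 and 1.57 FPKM in control skin, a change of 1.28 (SE 0.47, limma adjusted p = 0.237). Oas1a had 15.3 and 27.1 FPKM in irradiated skin, against 8.78 and 7.17 FPKM in control skin, a change of 1.26 (SE 0.51, limma adjusted p = 0.276). Both irradiated libraries stood apart from each other for these genes, with replicate 3 the higher. Oas3 had 1.99 and 5.83 FPKM in irradiated skin, against 1.47 and 0.835 FPKM in control skin. Oas2 had 5.82 and 15.5 FPKM in irradiated skin, against 5.52 and 3.64 FPKM in control skin. Oasl2 had 10.5 and 22.4 FPKM in irradiated skin, against 9.34 and 5.75 FPKM in control skin. For these 3, and for Oas1g as well, the lower irradiated library came close to the higher control library. The limma adjusted p-values of Oas3, Oas2 and Oasl2 were 0.325 to 0.395. Irradiated replicate 3 exceeded replicate 1 by a factor of 1.77 (Oas1a) to 2.94 (Oas3).

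At day 9 all 6 genes rose in irradiated skin, with mean FPKM 3.75 to 9.92 times that of control skin, while 2.33% of tested genes passed in that direction. No groups overlapped for any of the 6, against 16.8% of tested genes with that separation. The median log2 change was 2.02 over the 6 genes and 0.02 over all tested genes. Oasl1 had 22.0, 8.23 and 17.2 FPKM in irradiated day 9 skin, against 1.4, 0.792 and 2.60 FPKM in control day 9 skin, and rose by 2.66 (SE 0.41, limma adjusted p = 0.00696). Oas2 had 21.8, 10.9 and 14.7 FPKM in irradiated skin, against 2.56, 1.79 and 4.83 FPKM in control skin, and rose by 2.06 (SE 0.41, limma adjusted p = 0.0184). Oas1g had 13.1, 5.79 and 9.38 FPKM in irradiated skin, against 1.26, 0.825 and 2.56 FPKM in control skin, and rose by 2.03 (SE 0.38, limma adjusted p = 0.0137). In all of these, irradiated replicate 2 was the lowest of its group and control replicate 3 the highest of its own, with a gap between them. Oas1a had 40.4, 16.2 and 27.8 FPKM in irradiated skin, against 5.31, 3.54 and 10.0 FPKM in control skin, and rose by 2.01 (SE 0.42, limma adjusted p = 0.0213). Oas3 had 10.3, 3.19 and 5.84 FPKM in irradiated skin, against 0.630, 0.354 and 1.59 FPKM in control skin, and rose by 1.94 (SE 0.41, limma adjusted p = 0.0219). Oasl2 had 35.0, 17.3 and 24.9 FPKM in irradiated skin, against 5.99, 3.63 and 10.96 FPKM in control skin, and rose by 1.82 (SE 0.43, limma adjusted p = 0.0335). The day 9 calls also move with single libraries. Without control replicate 1, control replicate 2 or irradiated replicate 3, 1 of 6 passed, and without irradiated replicate 1, 2 passed. Oasl1 passed in each of these fits. Over all tested genes 232, 120, 94 and 561 passed in these 4 fits, against 822 with all libraries. When only the groups compared were fitted, 3 of the 6 and 741 of all tested genes passed.

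Averaged with equal weight over days 3, 6 and 9, all 6 genes rose with irradiation, while 4.36% of tested genes did. Oasl1 averaged 28.4 ± 21.7 FPKM in the 8 irradiated libraries and 2.37 ± 1.21 FPKM in the 7 control libraries of these days (SD), and rose by 2.65 on the log2 scale (SE 0.26, limma adjusted p = 0.000233). Oas3, at 10.4 ± 7.54 FPKM in irradiated and 1.18 ± 0.69 FPKM in control libraries, rose by 1.98. Oas1g, at 11.97 ± 5.94 FPKM in irradiated and 1.89 ± 0.79 FPKM in control libraries, rose by 1.97. The changes of the other 3 were 1.90 for Oas1a, 1.77 for Oasl2 and 1.62 for Oas2 (limma adjusted p = 0.00141, 0.00259 and 0.00363). These 6 calls held in every setting tried, each library left out in turn included.

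**Figure D3:**
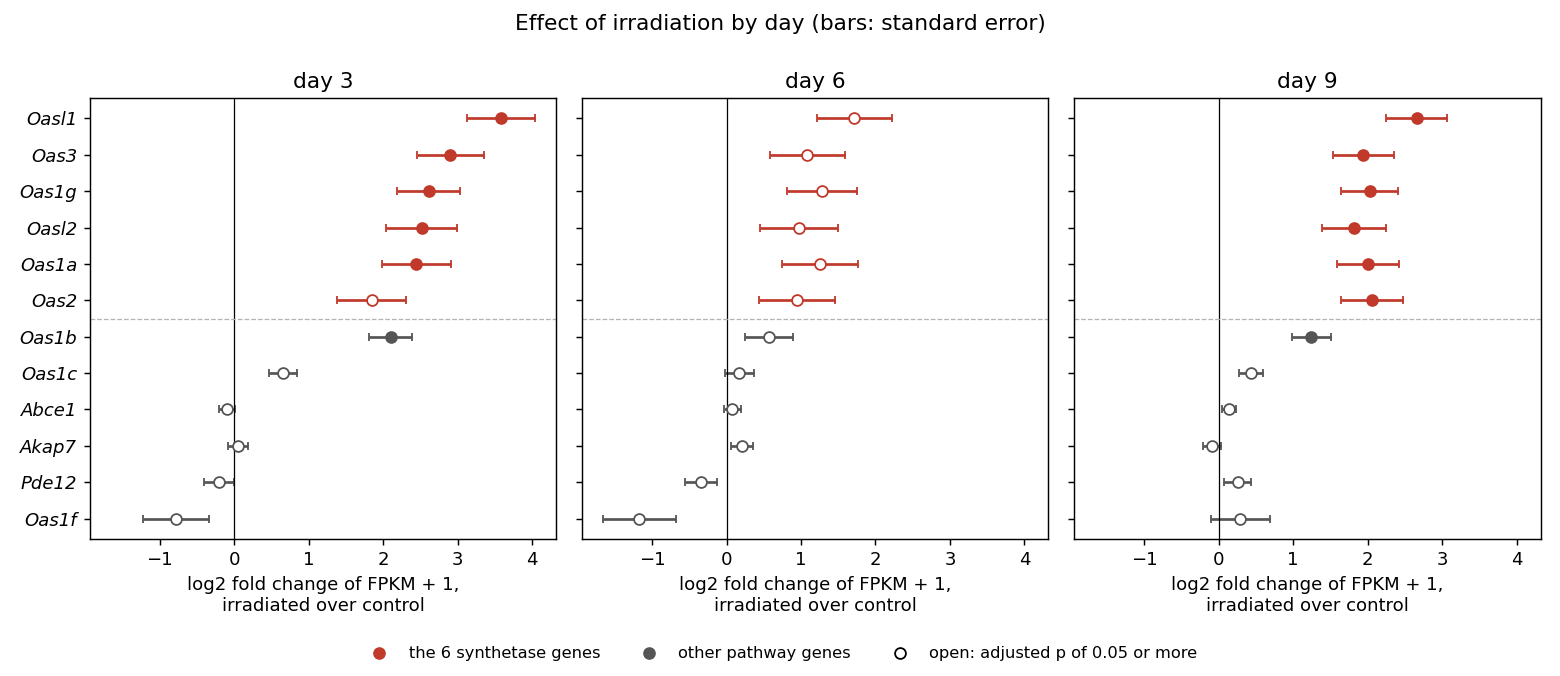
Log2 change of FPKM + 1, irradiated over control, at each day for the 6 synthetase genes (red) and 6 other genes of the pathway (grey), with standard errors. Filled points passed at an adjusted p under 0.05; Oasl1 has the largest change of the 6 at each day, and all day 6 points are open.

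An F test in limma asked if the irradiated-to-control change was unequal among the 3 days. None of the 6 genes passed, and none had an unadjusted p under 0.05 (0.0524 for Oasl1 to 0.265 for Oas1a), while 2 of all tested genes passed (0.0131%). The smaller day 6 changes were thus not shown to differ from those of the other days. Within irradiated skin, day 9 was set against day 3. None of the 6 passed as lower, against 0.583% of tested genes, although 4 had an unadjusted limma p under 0.05. Mean FPKM at day 9 was 0.301 (Oasl1) to 0.648 (Oas2) times that at day 3. Oasl1, Oas3, Oas1a and Oasl2 had every day 9 library below every day 3 library (17.7% of tested genes did), with limma adjusted p-values of 0.0653, 0.0982, 0.242 and 0.321, and Oas1g and Oas2 overlapped. With array quality weights all 6 passed in this comparison, but so did 3448 of all 15271 tested genes, against 147 in the fit without weights. With a pseudocount of 5, 2 of the 6 and 263 of all tested genes passed.

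Against control day 0, irradiated day 3 skin was higher for all 6 genes (log2 changes 2.07 for Oas2 to 3.08 for Oasl1), but 30.1% of tested genes also passed as higher. Irradiated day 9 skin was higher for 5 of 6 (1.34 for Oasl1 to 1.47 for Oas1g and Oas1a), while 29.6% of tested genes passed. Oas3, with a change of 1.07, had a limma adjusted p of 0.0728. Control day 3 skin did not differ from day 0 for any of the 6 at the threshold, with 12.4% of tested genes passing as lower and 25.8% as higher, and unadjusted limma p-values were all above 0.05. In control day 9 skin Oasl1 fell by 1.31 relative to day 0 (SE 0.46, limma adjusted p = 0.0314), while 18% of tested genes passed as lower. Its levels were 1.4, 0.792 and 2.60 FPKM at control day 9, against 3.57 and 7.39 FPKM at control day 0. This call was lost without control day 0 replicate 2, control day 9 replicate 1 or control day 9 replicate 2, and also with a pseudocount of 5, with low genes kept, with array quality weights or with only the groups compared. Without control day 0 replicate 1 or irradiated day 9 replicate 1 none of the 6 passed for irradiated day 9 against day 0, and without irradiated day 9 replicate 3, 2 did. That count was also 0 with array quality weights, 1 with only the groups compared, 2 when low genes were kept and 3 with the replicate number as a block. The day 0 group also differed in mitochondrial and muscle transcripts as given above, and the median of all tested genes lay 0.14 to 0.16 above day 0 in these comparisons. This median was -0.021 to 0.039 with quantile normalization or median-of-ratios scaling, and 0.24 to 0.32 with scaling to the nuclear genes. In all 11 other settings, these included, irradiated day 3 skin passed as higher than day 0 for all 6 genes. Beyond these fits, the part of the mitochondrial and muscle differences in the result was not tested.

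The 6 genes moved together from library to library within groups. One library was the lowest of its group for all 6 in each of the 7 groups, for example replicate 3 in irradiated day 3 skin, replicate 1 in irradiated day 6 skin and replicate 2 in irradiated day 9 skin. Pearson's r of each gene with the mean of the other 5 was 0.979 (Oas2) to 0.993 (Oas1a) over the 17 libraries, which share both the treatment groups and the library effects. Summed over the 6 genes, the level was 238, 252 and 164 FPKM in irradiated day 3 skin, against 38.1 and 23.1 FPKM in control day 3 skin. At day 6 it was 44.2 and 97.2 FPKM in irradiated skin, against 30.8 and 21.1 FPKM in control skin. At day 9 it was 143, 61.6 and 99.8 FPKM in irradiated skin, against 17.2, 10.9 and 32.6 FPKM in control skin. No irradiated library fell below any control library of its day in this sum. The make-up of the sum differed as well. Oasl1 made up 21.5% to 27.0% of it in irradiated day 3 libraries, against 10.5% and 12.2% in control day 3 libraries. Oas1a and Oasl2 were the most abundant pair in each of the 9 control libraries, whereas Oasl1 led in irradiated day 3 replicate 1.

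Ordered by group mean, irradiated day 3 was the highest group for all 6 genes, followed by irradiated day 9 and irradiated day 6. For Oas1a the day 3 and day 9 irradiated groups did not overlap, and those of day 9 and day 6 did. Neighbouring control groups of Oas1a all overlapped, with means of 9.77 ± 6.07 FPKM at day 0, 9.57 ± 2.65 FPKM at day 3, 7.98 ± 1.14 FPKM at day 6 (SD, n = 2 each) and 6.29 ± 3.35 FPKM at day 9 (SD, n = 3).

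Of the 10 other listed genes of the pathway, 7 were tested. Oas1b, linked in mice to flavivirus resistance and truncated in common laboratory strains, was the gene of this list that moved most like the 6. It had 12.8, 12.99 and 9.76 FPKM in irradiated day 3 skin, against 2.50 and 1.54 FPKM in control day 3 skin, and rose by 2.10 (SE 0.29, limma adjusted p = 0.00389). It also rose at day 9 by 1.24 (SE 0.26, limma adjusted p = 0.0219), and its r with the mean of the 6 was 0.976 over 17 libraries. Between the arms, Oas1c passed only as averaged over days, where it rose by 0.42 (SE 0.11, limma adjusted p = 0.033), with 2.09 ± 0.78 FPKM in the 8 irradiated and 1.18 ± 0.32 FPKM in the 7 control libraries of days 3 to 9 (SD). Oas1f did not follow the 6. It had 18.8, 13.6 and 16.5 FPKM in irradiated day 3 skin, against 24.4 and 33.0 FPKM in control day 3 skin, and 10.1 and 20.2 FPKM in irradiated day 6 skin, against 26.7 and 41.9 FPKM in control day 6 skin. These groups did not overlap, with the irradiated libraries lower, as for 25.1% of tested genes at day 3 and 16% at day 6, but neither difference passed (-0.78 and -1.17, limma adjusted p = 0.571 and 0.283). At day 9 its mean was 18.3 FPKM in irradiated and 13.5 FPKM in control skin, with overlapping groups. Its r with the mean of the 6 was -0.35. Abce1, a ribosome-recycling factor, and Pde12 and Akap7, phosphodiesterases that degrade oligoadenylates, passed in no comparison of irradiated with control skin at days 3, 6 or 9 or as averaged, with averaged log2 changes of 0.04, -0.10 and 0.06. Relative to control day 0, Pde12 and Abce1 rose in irradiated day 3 skin (1.28 and 0.64), in irradiated day 9 skin (1.20 and 0.68) and in control day 3 skin (1.49 and 0.74). Akap7 fell in all of these, and limma adjusted p was at most 0.0434 for these calls. Of all tested genes, 30.1%, 29.6% and 25.8% passed as higher in these comparisons, and 12.4% passed as lower in control day 3 skin. In control day 9 skin Pde12 and Abce1 also passed as higher and Akap7 as lower, while 18% of tested genes passed as lower. In either direction 7398 of 15271 tested genes passed there, 62.8% of them as higher. In irradiated day 3 and day 9 skin 7061 and 7055 passed against day 0, 65.1% and 64.1% of them as higher. The day 0 group differed in mitochondrial and muscle transcripts as given above. Oas1d, Oas1e and Oas1h lay under the filter. Oas1h had 12, 19 and 7 fragments in irradiated day 3 libraries, against 0 and 1 in control day 3 libraries. Oas1d had 8, 5 and 4 fragments in these irradiated libraries, against 2 and 2 in the controls. Oas1e did not follow, with 30, 12 and 15 fragments in irradiated day 3 libraries, against 15 and 18 in control day 3 libraries. At day 6 Oas1e had 5 and 20 fragments in irradiated libraries, against 31 and 62 in control libraries.

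**Figure D4:**
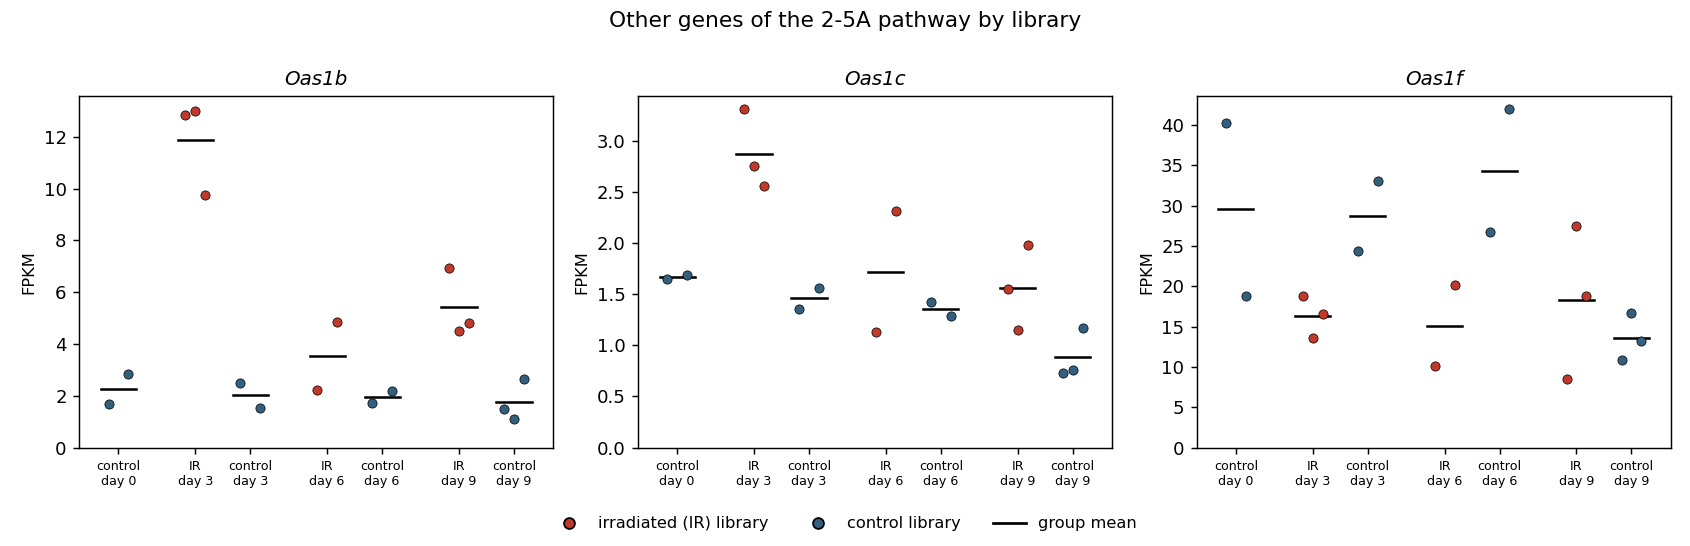
FPKM of Oas1b, Oas1c and Oas1f in all 17 libraries, irradiated (red) and control (blue), with the group mean as a bar. Oas1b and Oas1c are highest in irradiated day 3 skin, and Oas1f is lower in irradiated than in control libraries at days 3 and 6.

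Sensors of foreign nucleic acid formed the second list. Of its 10 genes, 8 rose at day 3, none passed at day 6 (3 had an unadjusted limma p under 0.05), 7 rose at day 9 and none fell. Of all tested genes, 1.56%, 0.151% and 2.33% passed as higher at days 3, 6 and 9. The median log2 change at day 3 was 1.77 over the list and -0.04 over all tested genes. Zbp1, a sensor of Z-form nucleic acid, had 50.7, 54.0 and 35.7 FPKM in irradiated day 3 skin, against 7.13 and 4.19 FPKM in control day 3 skin, and its averaged change of 2.2 was the largest of the list (limma adjusted p = 0.00141). Dhx58 and Ifih1, which encode the cytoplasmic RNA sensors LGP2 and MDA5, and Ddx58, which encodes RIG-I, rose by 1.72, 1.33 and 1.21 averaged over days. Mavs, their adaptor, and Tmem173, which encodes STING, did not pass.

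Of the 18 listed interferon ligands, receptors and signal transducers, 16 were tested. At day 3 and as averaged 5 rose, Irf7, Irf9, Stat2 and Usp18 among them, and Irf7, Stat2 and Usp18 also rose at day 9. The share of all tested genes that passed as higher was 1.56% at day 3, 2.33% at day 9 and 4.36% as averaged. Irf7 had 149, 156 and 95.2 FPKM in irradiated day 3 skin, against 18.4 and 8.61 FPKM in control day 3 skin, and rose by 2.88 averaged over days (SE 0.35, limma adjusted p = 0.000687). Usp18, a negative regulator of interferon signalling, had 45.9, 41.0 and 26.3 FPKM in irradiated day 3 skin, against 4.12 and 2.10 FPKM in control day 3 skin, and rose by 2.2. Stat2, a signal transducer of interferon receptors, rose by 1.31. The interferon receptor and kinase genes Ifnar1, Ifnar2, Ifngr1, Ifngr2, Jak1, Jak2 and Tyk2 did not pass in the averaged comparison. Ifnb1, the interferon beta gene, lay under the filter and was singled out after its values were seen. It had 33, 11 and 9 fragments in irradiated day 3 libraries, 0 and 4 at irradiated day 6, and 4, 2 and 2 at irradiated day 9, against 0 in each of the 9 control libraries. Ifnk, a keratinocyte interferon gene, had 28, 7 and 5 fragments in irradiated day 3 libraries, against 2 and 1 in control day 3 libraries and 47 and 32 at control day 0.

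**Figure D5:**
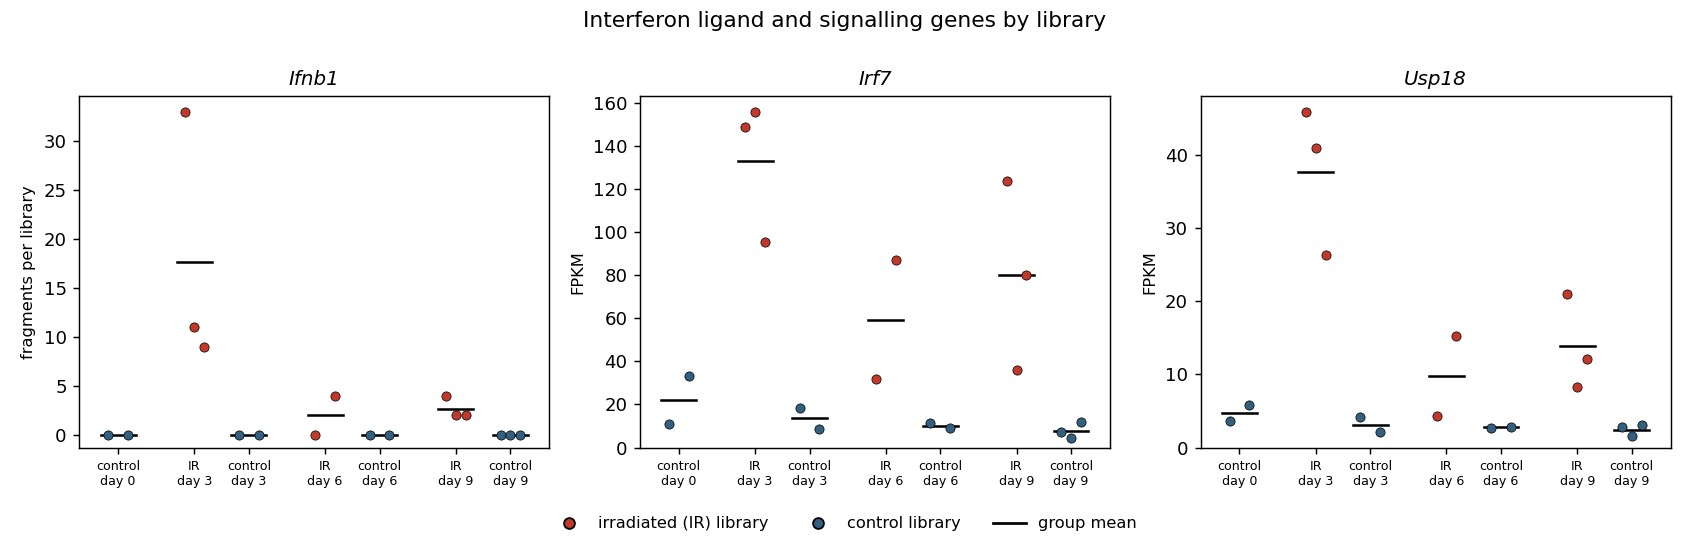
Fragments per library of Ifnb1 and FPKM of Irf7 and Usp18 in all 17 libraries, irradiated (red) and control (blue), with the group mean as a bar. Ifnb1 has no fragment in any control library, and Irf7 and Usp18 are highest in irradiated day 3 skin.

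Likeness to the mean of the 6 in log2 level over the 17 libraries was ranked among 12896 named protein-coding genes. The genes of the lists above were left out of this ranking. The closest of those compared were Phf11b (r = 0.989), Ifi206 (0.986), Ddx60 (0.985), Phf11d (0.984), Isg15 (0.982) and Rtp4 (0.981). Within the 8 irradiated libraries alone r was 0.972 to 0.992, and within the 9 control libraries 0.826 to 0.963. These libraries share treatment, day and preparation, so r is given as a description. Phf11b had 81.2, 80.1 and 42.8 FPKM in irradiated day 3 skin, against 8.85 and 4.07 FPKM in control day 3 skin. Isg15, a ubiquitin-like modifier, had 481, 412 and 260 FPKM in irradiated day 3 skin, against 39.5 and 14.2 FPKM in control day 3 skin. For both genes the groups did not overlap and irradiated replicate 3 was the lowest of its group. Apol9a and Apol9b, which share the 16-base run with Oas1a and Oas1g and were looked up for that reason, rose by 1.87 and 2.06 averaged over days (limma adjusted p = 0.0016 and 0.000987), while 4.36% of tested genes rose. Oas1c, whose window also holds the run, rose less, as given above. Oasl1, whose window holds no match, had the largest averaged change of the 6. The part of the run in these changes was not tested.

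Markers of the cell types that skin can hold were set beside these results. The macrophage and monocyte list (5 of 5 in the table, with both rows of Itgam) summed to 776 to 2126 FPKM in irradiated day 3 skin, against 937 and 1200 FPKM in control day 3 skin, and to 1269 to 1399 FPKM in irradiated day 9 skin, against 1313 to 1840 FPKM in control day 9 skin. These sums overlapped between the arms, but most of each came from Lyz2, and single markers differed from it. Cd68, a lysosomal protein of macrophages, had 196, 241 and 203 FPKM in irradiated day 3 skin, against 119 and 92.0 FPKM in control day 3 skin, and its irradiated libraries also lay above all control libraries at days 6 and 9. Averaged over days Cd68 rose by 0.91 (SE 0.23, limma adjusted p = 0.0363), as the 6 synthetase genes and 4.36% of tested genes did. Of the 5 tested markers of this list, Cd68 was the only 1 to pass. Adgre1, which encodes F4/80, overlapped at day 3 and was higher without overlap at days 6 and 9, but did not pass. Csf1r overlapped at all 3 days. The more abundant row of Itgam overlapped at days 3 and 9 and was higher without overlap at day 6. Among tested genes, 15.9%, 19.8% and 16.8% were higher without overlap at days 3, 6 and 9. The neutrophil list (5 of 5) summed to 1794 to 2903 FPKM in irradiated day 3 skin, against 1717 and 3042 FPKM in control day 3 skin, and overlapped at all 3 days.

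Plasmacytoid dendritic cell markers (3 of 3) summed to 0.190 to 0.446 FPKM over the irradiated libraries, against 0.599 to 2.17 FPKM in control libraries of days 3 to 9 and 0.423 and 0.494 FPKM at control day 0. Siglech, the 1 of the 3 that was tested, was lower by 0.72 averaged over days (limma adjusted p = 0.00116). It reached 1 FPKM only in control day 6 replicate 1 (1.52) and control day 9 replicate 3 (1.15). Siglech thus passed the filter only through the arm where it is higher, and the call cannot count as separate evidence of a fall. Its irradiated values were 0.0108 to 0.131 FPKM, near the floor. Its irradiated libraries lay below the control libraries at all 3 days, whereas Ccr9 overlapped between the arms at day 3 and Pacsin1 at days 3 and 9. T cell markers (5 of 5) summed to 1.25 to 1.92 FPKM in irradiated day 3 skin, against 2.41 and 4.17 FPKM in control day 3 skin, and to 2.15 and 2.22 FPKM in irradiated day 6 skin, against 7.44 and 14.6 FPKM in control day 6 skin. They were thus lower without overlap at days 3 and 6, and the arms overlapped at day 9. At that day they summed to 45.9 FPKM in control replicate 3, against 6.13 and 5.44 FPKM in the other control libraries, and replicate 3 was also the highest of its group for all 6 synthetase genes. Fibroblast markers (5 of 5) summed to 1444 to 2141 FPKM in irradiated day 3 skin, against 882 and 1342 FPKM in control day 3 skin, and to 2431 to 4618 FPKM in irradiated day 9 skin, against 5100 to 6414 FPKM in control day 9 skin. Epithelial markers summed to 9036 to 12422 FPKM in irradiated day 3 skin, against 13073 and 13461 FPKM in control day 3 skin, and to 11326 to 11711 FPKM in irradiated day 9 skin, against 5152 to 9460 FPKM in control day 9 skin. The fibroblast sum was thus higher in irradiated skin at day 3 and lower at day 9. The epithelial sum was lower at day 3 and higher at day 9, and both overlapped at day 6. At days 3 and 9 most of these sums came from Col1a1 and Col1a2 and from Krt14, and single markers differed. At day 3 Col1a1, Col1a2, Pdgfra and Dsp overlapped between the arms. At day 9 Dcn, Pdgfra and Krt10 overlapped, and the other markers of both lists went with the sums. Endothelial markers (5 of 5) summed to 62.4 to 87.2 FPKM in irradiated day 3 skin, against 93.6 and 97.9 FPKM in control day 3 skin, and overlapped at days 6 and 9, and skeletal muscle markers overlapped at all 3 days. None of the tested T cell (3 of 5), fibroblast, epithelial and endothelial markers (5 of 5 each) passed between the arms at any day or as averaged in limma. The part of cell makeup in the results was not tested.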

How the data were processed

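Total RNA of C57/BL6j mouse skin was made into Smart-Seq2 libraries and sequenced from both ends on an Illumina NovaSeq instrument, per the labels. Reads were aligned to mm10 with HISAT2 2.2.1, per the submitters' processing notes. No source used here names the counting tool or its annotation. The authors deposited FPKM for 34140 genes in 17 libraries. With GENCODE M21 gene lengths, all values of 31476 genes came out as whole fragments within 0.01, which gave the library totals.

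Groups follow the labels' treatment and day. The limma 3.58.1 package (R 4.3.3, limma-trend) was fitted to log2(FPKM + 1) of 15271 genes with at least 1 FPKM in at least 2 libraries, with 1 mean per group over all 17 libraries and Benjamini-Hochberg adjustment over all tested genes; the fit was tested on simulated data. The 6 synthetase genes are always named, and so is the rest of the pathway apart from what is not reported here. Of the other lists, up to 4 genes with the largest averaged change are named, plus the 6 genes outside all lists most like the synthetases. Some genes of these lists are counted but not reported here. The members and gene lists were chosen with earlier results of these data known. Alternatives were 9 planned settings, 2 chosen after seeing the data (scaling to nuclear genes, and limma-voom on the recovered fragments), and each of the 17 libraries left out in turn. The labels state no design that pairs libraries, so the main fit has no replicate term. Deviations from group means correlated at -0.12 to 0.30 between same-numbered libraries of both arms. Start windows came from RefSeq; protein sequences were not used here.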

Additional observations from a re-analysis of the deposited data

How the results depend on the processing

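The averaged effect of irradiation passed for all 6 synthetase genes in all 11 other settings and with each library left out, and at day 6 and in the F test none passed in any. At day 3, 5 or 6 passed in the other settings and 0 to 5 with a library left out. At day 9, 3 passed when only the groups compared were fitted, and 1 to 6 with a library left out. For irradiated day 9 against irradiated day 3, 2 passed with a pseudocount of 5 and 6 with array quality weights, fits in which 263 and 3448 of all tested genes passed, against 147. For control day 9 against day 0, 0 passed with a pseudocount of 5, no filter, array quality weights or only the groups compared, and 0 to 1 with a library left out. For irradiated day 9 against day 0, 2 passed with no filter, 0 with array quality weights, 1 with only the groups compared and 0 to 6 with a library left out. With the replicate number as a block, 3 passed there, and the block moved no other count of calls past 1.5 times; same-numbered libraries correlated at -0.12 to 0.30, so the numbers are not shown to pair the libraries. For irradiated day 3 against day 0, 5 to 6 passed with a library left out.

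Changes that did not pass also turned sign. Oas1a at control day 3 against day 0 was 0.07, and -0.10 with quantile normalization, -0.11 with median-of-ratios scaling and -0.045 with the replicate block. With a library left out that comparison ran over -0.53 to 0.68 for Oas1a, -0.65 to 0.090 for Oas1g, -0.44 to 0.89 for Oas2, -0.73 to 0.049 for Oas3 and -0.84 to 0.35 for Oasl2. Control day 9 against day 0 ran over -1.15 to 0.070 for Oas1a, -1.29 to 0.041 for Oas2 and -1.05 to 0.14 for Oasl2. The cause was not tested. Groups of 2 or 3 libraries limit all single-day calls, and a fit that leaves 1 library in a group assumes that it varies like the other groups.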
